A study of Mus musculus with 23 samples.

Results

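The genes described here are 10 components and targets of the Notch pathway, taken by gene name from the RNA-seq tables: the receptors Notch1, Notch2, Notch3 and Notch4, the ligands Dll1, Dll3, Jag1 and Jag2, and the targets Hes1 and Hey1. They are 10 of 23369 gene names, each with 1 row per sample, and the rule that chose them is a list of names without a threshold on any value. The samples were mouse Kdm2b fl/fl ESCs, given as MS12 in the labels (the methods name MS12 as the ESCs in which the floxed allele was made, and the lines with Cre as derived from mice bred from them), at passages 10 to 20, in which an exon encoding most of the KDM2B ZF-CxxC domain is flanked by loxP sites and a tamoxifen-inducible Cre is expressed from Rosa26. Of the 6 cultures, 3 (replicates 1 to 3) were left untreated and 3 received 4-hydroxytamoxifen for 72 hr (800 nM in the sample labels, 800 µM in the series text) to delete the domain, through which KDM2B binds nonmethylated CpG islands and brings the PCGF1/PRC1 polycomb complex to them. All 6 samples carried the floxed alleles and the Cre, and none carried Cre with intact Kdm2b alleles, so the effects of the drug, of Cre and of the deletion cannot be told apart. Each sample was grouped by its own label. For all 6 samples the table's name points to the opposite group, and if the names were right rather than the labels, higher and lower would be exchanged throughout.

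Notch receptors are single-pass membrane proteins that bind Delta-like and Jagged ligands on neighbouring cells. Ligand binding leads to cleavage of the receptor and release of its intracellular domain, which enters the nucleus, binds the DNA-binding protein RBPJ and activates genes such as the HES and HEY repressors. In ESCs the pathway is best known for its part in the choice of neural fate, and many genes of the pathway belong to the developmental genes at which polycomb complexes are found.

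Expression is given as FPKM (fragments per unit of gene length and of sequencing depth). Between 11571 and 11980 rows per sample had at least 1 FPKM, and read numbers are not in the tables. The ESC label was checked on 7 pluripotency markers, whose summed level was 1296 to 1496 FPKM in the untreated samples and 1400 to 1704 FPKM in the treated samples, led by Pou5f1. The 9 markers of the fibroblast feeders used in culture summed to 37.7 to 102 FPKM and 46.8 to 99.3 FPKM in the same order, lowest in replicate 1 of both groups, with 2 of the 9 below 0.5 FPKM in every sample and Col1a1 the highest. The targeted gene, Kdm2b, had 26.95, 21.55 and 27.71 FPKM in untreated replicates 1, 2 and 3 and 19.87, 21.91 and 25.04 FPKM in treated replicates 1, 2 and 3. Its groups overlapped, and its log2 fold change was −0.19 (standard error 0.21, limma adjusted p = 0.999). These values cover the whole gene and do not show the floxed exon. In bulk RNA, fewer cells of a type and less RNA per cell cannot be told apart.

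All 4 Notch ligands were lower in the treated cells within each of the 3 replicate numbers, and Dll1 showed the largest difference of the 10 genes. The receptors and the targets Hes1 and Hey1 differed less and in both directions. In the comparison of the groups without pairing, limma called 0 of the 10 members (1 at an unadjusted p under 0.05, Dll1), where 0.0308% of the 12997 genes tested were called and 4.79% had an unadjusted p under 0.05. Partners (the untreated and the treated sample of 1 replicate number) varied together, and a limma fit that blocks on this number called 4 of the 10 members lower, the 4 ligands, and 0 higher. With the block 6.06% of all genes tested were called lower and 4.33% higher. The members were chosen with earlier results of these data known, so these shares describe the background and are no independent test of the list. The median log2 fold change was −0.43 over the 10 members and −0.02 over all genes tested.

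**Figure D1:**
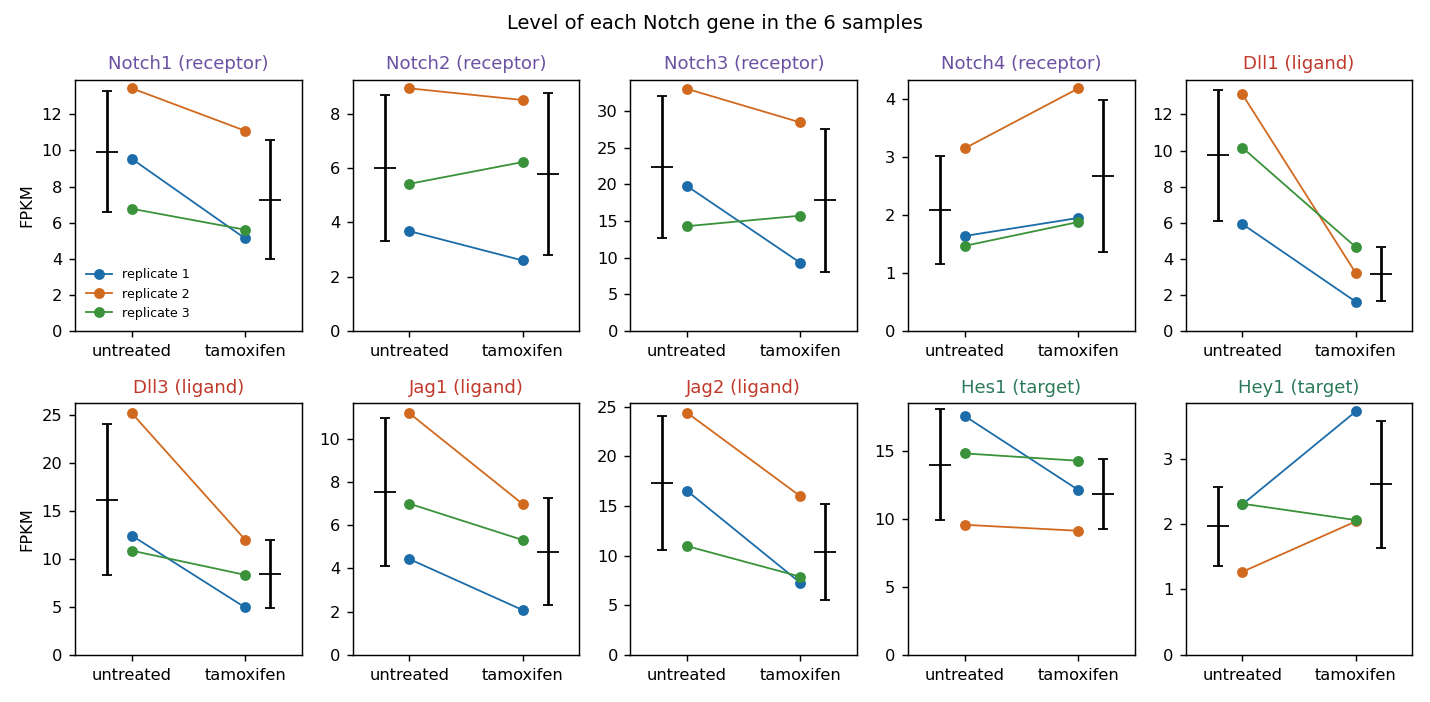
FPKM of each of the 10 Notch genes (y axis, from 0) in untreated and tamoxifen-treated samples (x axis). Points are samples, lines join samples with the same replicate number, and black bars give the group mean and SD (n = 3). The lines of the 4 ligands fall in all 3 replicate numbers, whereas those of Notch2, Notch3 and Hey1 run in both directions.

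In mm9, the build of the deposited tables, Notch1 and Jag1 lie on chromosome 2 (chr2:26313422-26359342 and chr2:136907187-136942256), Notch2 and Hey1 on chromosome 3 (chr3:97817461-97954290 and chr3:8663359-8667038), and Notch3, Notch4 and Dll1 on chromosome 17 (chr17:32257838-32303797, chr17:34701240-34725488 and chr17:15504318-15512787). Dll3 lies at chr7:29078574-29086804, Jag2 at chr12:114146801-114167706 and Hes1 at chr16:30065443-30067882. Values cover each gene as a whole. The order of the levels, averaged over the 6 samples, ran from Notch3 (20.1 FPKM), Jag2 (13.8), Hes1 (12.9) and Dll3 (12.3) through Notch1 (8.59), Dll1 (6.45), Jag1 (6.16) and Notch2 (5.89) to Notch4 (2.38) and Hey1 (2.28). FPKM is scaled to gene length, so these levels can be set side by side. Notch3 lay above Jag2 in all 6 samples and Notch2 above Notch4 in all 6, whereas other neighbours changed places: Jag2 exceeded Hes1 in 2 samples, Dll1 exceeded Jag1 in 3 and Notch4 exceeded Hey1 in 2. Part of this followed the groups: the mean of Dll1 was above those of Jag1 and Notch2 in the untreated samples (9.73 against 7.53 and 6.01 FPKM) and below both in the treated samples (3.17 against 4.78 and 5.78 FPKM), and that of Dll3 was above Hes1 untreated (16.1 against 14.0 FPKM) and below it treated (8.42 against 11.8 FPKM). All 10 members passed the filter on low values, and the lowest single value among them was 1.27 FPKM (Hey1 in untreated replicate 2), so none entered the test through 1 group alone.

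Among the receptors, Notch3 had 19.75, 32.99 and 14.3 FPKM in untreated replicates 1, 2 and 3 and 9.3, 28.42 and 15.73 FPKM in treated replicates 1, 2 and 3. The groups overlapped, and replicate 2 was the highest sample on both sides. Its log2 fold change of −0.39 had a standard error of 0.44 without the block (limma adjusted p = 0.999) and 0.21 with it (limma adjusted p = 0.251). Without treated replicate 1 the log2 fold change of Notch3 was 0.0067. Notch1, the receptor with the broadest known role in embryonic patterning, had 9.53, 13.43 and 6.77 FPKM untreated and 5.13, 11.08 and 5.61 FPKM treated. Each treated sample lay below its untreated partner, by 0.88, 0.28 and 0.27 on the log2 scale in replicates 1, 2 and 3, yet the groups overlapped and the block left the limma adjusted p at 0.0828 (log2 fold change −0.47, standard error 0.15). Notch2 had 3.68, 8.93 and 5.42 FPKM untreated and 2.6, 8.5 and 6.22 FPKM treated, with differences of both signs between partners (log2 fold change −0.12, standard error 0.15 and limma adjusted p = 0.63 with the block). The sign of Notch2 changed without treated replicate 1 (0.36) and without untreated replicate 2 (0.21). Notch4, known chiefly from endothelial cells, was the lowest receptor at 1.64, 3.15 and 1.47 FPKM untreated and 1.95, 4.18 and 1.88 FPKM treated. It was the only member above its untreated partner in all 3 replicate numbers, which 24.8% of all genes tested were (log2 fold change 0.32, standard error 0.15, limma adjusted p = 0.189 with the block), though without treated replicate 2 its log2 fold change was −0.0415. The 6 endothelial markers summed to 23.8, 43.1 and 28.6 FPKM untreated and 38.6, 62.7 and 36.4 FPKM treated, higher in each treated sample than in its partner. Most of each sum was Pecam1, at 19.9, 36.8 and 22.7 FPKM untreated and 34.87, 54.69 and 31.39 FPKM treated, so the sums mainly follow this 1 gene. Of these markers Pecam1 (19.9 to 54.69 FPKM), which ESCs also express, and Tek (2.71 to 4.64 FPKM) were above their partners in all 3 replicate numbers. Kdr was below its partner in all 3, at 0.49, 1.41 and 2.18 FPKM untreated and 0.2, 1.28 and 0.9 FPKM treated. Cdh5, Tie1 and Erg were at or below 1.6 FPKM in every sample, and each was below its partner in 2 of the 3 replicate numbers. The part of the endothelial markers in the level of Notch4 was not tested.

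Dll1, a ligand that activates receptors on neighbouring cells, had 5.93, 13.11 and 10.16 FPKM in untreated replicates 1, 2 and 3 and 1.63, 3.22 and 4.66 FPKM in treated replicates 1, 2 and 3. The lowest untreated sample lay above the highest treated one, and Dll1 was the only member whose groups did not overlap, a pattern in this direction shared by 5.4% of all genes tested. The means were 9.73 ± 3.61 and 3.17 ± 1.52 FPKM (SD, n = 3), and the log2 fold change was −1.63, which is 3.1-fold lower on the log2(FPKM + 0.1) scale. Its standard error fell from 0.42 without the block (limma adjusted p = 0.456) to 0.18 with it (limma adjusted p = 0.00418). Between partners the log2 difference was −1.80 in replicate 1, −1.99 in replicate 2 and −1.11 in replicate 3. The interval that the quantification attached to each Dll1 value was 5.18 to 6.43 FPKM in untreated replicate 1 and 1.31 to 1.95 FPKM in its treated partner, and the intervals of partners were apart in the other 2 replicate numbers as well.

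Dll3, a divergent ligand that mainly acts inside the cell in which it is made, had 12.42, 25.16 and 10.85 FPKM untreated and 4.94, 12 and 8.33 FPKM treated. Treated replicate 2 exceeded untreated replicate 3, so the groups overlapped, while each treated sample was below its partner, by 1.31, 1.06 and 0.38 on the log2 scale. Jag2 had 16.51, 24.37 and 10.95 FPKM untreated and 7.25, 15.97 and 7.87 FPKM treated, and Jag1 had 4.43, 11.17 and 6.99 FPKM untreated and 2.07, 6.97 and 5.31 FPKM treated. Both Jagged ligands showed the same arrangement, overlapping groups with every treated sample below its partner. The log2 fold changes were −0.92 for Dll3, −0.75 for Jag2 and −0.71 for Jag1, and for each of them limma without the block gave an adjusted p of 0.999. With the block the standard errors were 0.17, 0.15 and 0.15 and the limma adjusted p values 0.0204, 0.0228 and 0.0284. Of all genes tested, 28.2% were lower within all 3 replicate numbers. With the block and without replicate 2 in both groups, 0 of the 4 ligands passed (limma adjusted p = 0.0596 for Dll1, 0.161 for Dll3, 0.123 for Jag2 and 0.179 for Jag1), where 0.331% of all genes were called lower. The log2 fold changes without it were −1.45 for Dll1, −0.85 for Dll3, −0.82 for Jag2 and −0.73 for Jag1. All 4 passed without replicate 1 and without replicate 3, where 7.78% and 3.68% of all genes were called lower, and also with a pseudocount of 1 (7.16%) and with quantile normalization (4.51%). With the block and each sample scaled to TPM (a fixed sum per sample), Dll1 and Dll3 passed, and Jag2 (limma adjusted p = 0.052) and Jag1 (0.13) did not, where 2.6% of all genes were called lower.

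**Figure D2:**
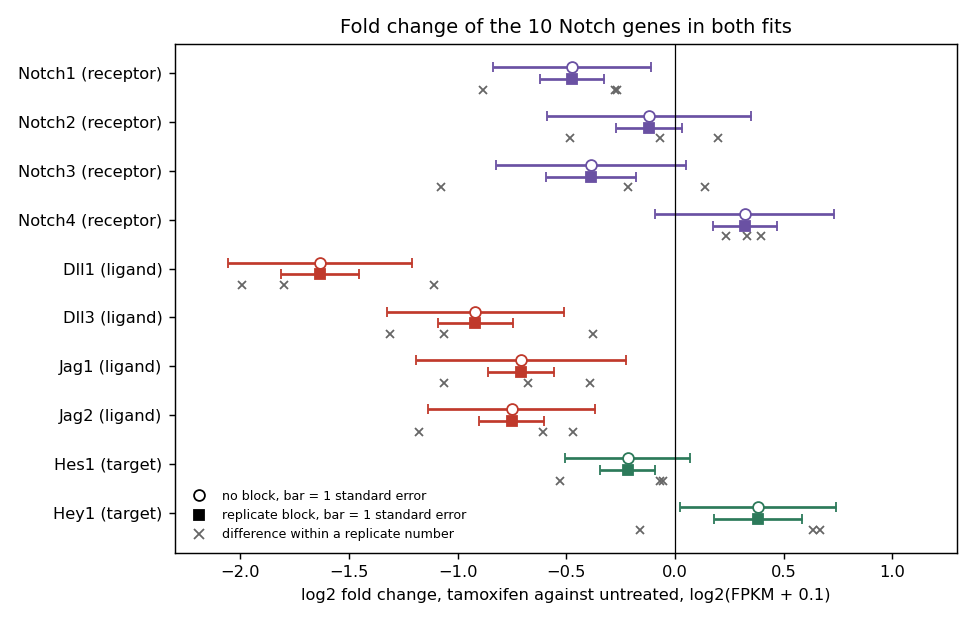
Log2 fold change of the 10 Notch genes, tamoxifen-treated against untreated (x axis), from the unpaired fit (open circles) and the fit that blocks on replicate number (filled squares). Bars are 1 standard error, and crosses are the differences within replicate numbers 1 to 3. All crosses of the 4 ligands lie below 0, from −0.38 to −1.99.

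KDM2B recognises nonmethylated CpG through the deleted domain, and the promoters of the 4 ligands are printed here with that of Notch4, which has the fewest CpG of those matched. Promoters of 8 of the 10 members were found in RefSeq (GRCm38.p6), those of Hes1 and Hey1 were not matched, and each sequence occurred exactly once on its chromosome in mm9. The 250 bases before the start site are printed 5′ to 3′ on the strand of the gene, with mm9 positions and with every CpG in capitals.
Dll1, chr17:15512788-15513037, minus strand: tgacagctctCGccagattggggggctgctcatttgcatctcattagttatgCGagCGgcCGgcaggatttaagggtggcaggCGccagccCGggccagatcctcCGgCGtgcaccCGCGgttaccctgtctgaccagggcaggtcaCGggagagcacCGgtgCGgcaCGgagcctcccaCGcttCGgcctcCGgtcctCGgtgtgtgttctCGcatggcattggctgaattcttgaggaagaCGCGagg
Dll3, chr7:29086805-29087054, minus strand: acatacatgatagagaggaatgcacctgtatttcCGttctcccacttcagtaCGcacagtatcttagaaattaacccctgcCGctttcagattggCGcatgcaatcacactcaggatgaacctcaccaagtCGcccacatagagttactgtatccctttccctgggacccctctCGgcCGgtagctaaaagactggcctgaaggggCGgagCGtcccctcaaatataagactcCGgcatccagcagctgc
Jag1, chr2:136942257-136942506, minus strand: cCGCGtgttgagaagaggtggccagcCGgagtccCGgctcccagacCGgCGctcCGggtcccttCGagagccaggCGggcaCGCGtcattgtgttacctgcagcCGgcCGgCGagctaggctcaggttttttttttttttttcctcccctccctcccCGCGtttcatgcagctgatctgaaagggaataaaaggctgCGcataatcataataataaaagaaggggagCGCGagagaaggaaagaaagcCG
Jag2, chr12:114167707-114167956, minus strand: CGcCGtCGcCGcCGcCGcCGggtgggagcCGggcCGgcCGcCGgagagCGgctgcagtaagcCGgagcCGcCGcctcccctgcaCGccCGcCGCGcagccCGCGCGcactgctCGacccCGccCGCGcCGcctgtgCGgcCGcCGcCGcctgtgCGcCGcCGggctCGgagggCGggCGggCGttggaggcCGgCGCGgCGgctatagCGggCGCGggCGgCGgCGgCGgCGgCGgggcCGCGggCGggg
Notch4, chr17:34700990-34701239, plus strand: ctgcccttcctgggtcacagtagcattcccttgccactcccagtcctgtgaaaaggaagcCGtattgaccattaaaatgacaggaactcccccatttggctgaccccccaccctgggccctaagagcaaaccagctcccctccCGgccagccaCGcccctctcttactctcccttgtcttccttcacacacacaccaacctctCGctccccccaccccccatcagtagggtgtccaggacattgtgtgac

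These windows lie directly upstream of the first exon, and their start sites are the 5′ ends of the genes in the deposited tables. A second Dll1 start lies 1109 bases upstream, with 13 CpG in its window. Jag2 had 54 CpG in 250 bases, a number reached by 0.0152% of 32851 promoters, Dll1 had 21, Jag1 20 and Dll3 10. The receptors had 16 (Notch1), 34 (Notch2), 17 (Notch3) and 4 (Notch4), against a median of 15 for promoters of the genes tested here. The RBPJ core motif TGGGAA, searched on both strands, was in 0 of these windows and in 20.3% of the promoters of tested genes. Occupancy of KDM2B, RING1B and SUZ12 at these promoters was not analysed here, and a relation between CpG number and expression was not tested.

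The balance of ligands and receptors can be read within a sample, where scaling between samples does not enter. The 4 ligands summed to 39.3, 73.8 and 38.9 FPKM in untreated replicates 1, 2 and 3 and to 15.9, 38.2 and 26.2 FPKM in treated replicates 1, 2 and 3, and the 4 receptors to 34.6, 58.5 and 28 FPKM and to 19, 52.2 and 29.4 FPKM. The ratio of ligand to receptor FPKM was 1.14, 1.26 and 1.39 untreated and 0.837, 0.731 and 0.889 treated, a mean of 1.26 ± 0.129 against 0.819 ± 0.0803 (SD, n = 3). Ligands outweighed receptors in every untreated sample and receptors outweighed ligands in every treated one, and leaving out any 1 sample kept the difference of the means between −0.508 and −0.380. This ratio was formed after the values had been seen and is given without a test.

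Within the ligands, Dll1 made up 15.1%, 17.8% and 26.1% of the sum untreated and 10.3%, 8.44% and 17.8% treated, lower in each replicate number with groups that overlapped. The share of Dll3 stayed near its mean of 31.2 ± 3.13% untreated and 31.5 ± 0.37% treated (SD, n = 3), and the shares of Jag1 and Jag2 were higher in each treated sample than in its partner. Notch3 made up about the same part of the receptor sum in both groups, 54.9 ± 3.25% and 52.3 ± 2.9% (SD, n = 3). Notch4 had 4.75% to 5.39% of it untreated and 6.38% to 10.3% treated, the only receptor whose shares did not overlap.

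**Figure D3:**
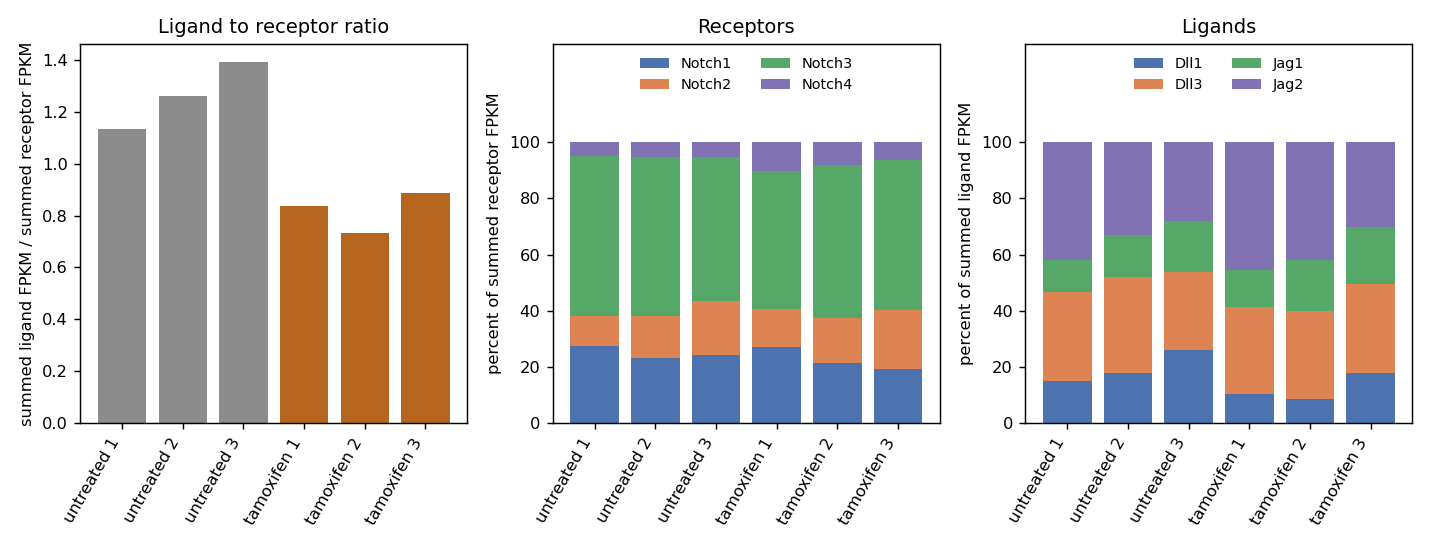
Left, summed FPKM of Dll1, Dll3, Jag1 and Jag2 divided by that of Notch1 to Notch4 in each of the 6 samples (untreated in grey, tamoxifen-treated in brown). Middle and right, the percent of the receptor sum and of the ligand sum taken by each gene. The ratio is 1.14 or more in the untreated samples and 0.889 or less in the treated ones, and Notch3 is the largest receptor share throughout.

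Hes1, a repressor of proneural genes that Notch signalling activates, had 17.57, 9.57 and 14.82 FPKM in untreated replicates 1, 2 and 3 and 12.14, 9.13 and 14.28 FPKM in treated replicates 1, 2 and 3. The groups overlapped, and only replicate 1 showed a difference of more than 0.1 on the log2 scale (−0.53). Its log2 fold change was −0.22 (standard error 0.13, limma adjusted p = 0.284 with the block), and in 3 of the 6 samples the Hes1 value lay above the interval deposited with it, the only such values among the 60 of the 10 members. Hey1, a related repressor known from heart and vessel development, had 2.3, 1.27 and 2.31 FPKM untreated and 3.72, 2.04 and 2.06 FPKM treated. It was higher in replicates 1 and 2 and lower in replicate 3 (log2 fold change 0.38, standard error 0.2, limma adjusted p = 0.242 with the block). Neither target passed under any setting used here.

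The members also differed by replicate number. Replicate 2 was the highest sample of both groups for 7 of the 8 membrane proteins, all but Dll1, where 20.4% of all genes tested had this pattern. For Hes1 and Hey1, both nuclear, replicate 2 was the lowest sample of both groups, as for 26.7% of all genes. Among the other genes of the pathway, replicate 2 was highest in both groups for 13 of 15 listed genes of sugar transfer and receptor cleavage. Of 17 listed genes of the nuclear complex and its corepressors, it was highest in both groups for 1 and lowest in both for 3. The feeder markers were also highest in replicate 2, summing to 102 and 99.3 FPKM in the untreated and treated groups. They summed to 76.8 and 74.9 FPKM in replicate 3 and 37.7 and 46.8 FPKM in replicate 1. Among the receptors and ligands, untreated replicate 3 lay below untreated replicate 1 for Notch1, Notch3, Notch4, Dll3 and Jag2, and above it for Notch2, Dll1 and Jag1. In the treated group only Notch4 of these receptors and ligands was lower in replicate 3 than in replicate 1. The part of feeders in the levels of the receptors and ligands was not tested.

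Of 57 other genes of the pathway, 47 passed the filter. Without the block limma called 0 of them (2 at an unadjusted p under 0.05), and with it 1 was higher and 3 were lower, or 4 of 47 where 10.4% of all genes tested were called. Under the block the number was 4 with a pseudocount of 1 (12.2% of all genes), 6 with quantile normalization (8.8%) and 1 with TPM scaling (5.96%), and it was 5, 1 and 3 without replicates 1, 2 and 3 (13.5%, 0.608% and 6.44%). Both tested genes among 8 further genes listed as targets or HES and HEY relatives, Nrarp and Hes6, were lower with the block. Nrarp, a direct target whose product limits Notch signalling, had 4.68, 3.05 and 2.58 FPKM untreated and 1.88, 1.7 and 1.62 FPKM treated, with no overlap (log2 fold change −0.90, limma adjusted p = 0.7 without and 0.0201 with the block). Hes6, a HES family member that is not itself driven by Notch in most settings and opposes Hes1, had 52.11, 38.64 and 39.81 FPKM untreated and 25.94, 23.09 and 20.83 FPKM treated. Its groups were apart as well, and its log2 fold change was −0.89 (limma adjusted p = 0.42 without and 0.00418 with the block). Hes6 was the one gene of the list that also passed without replicate 2 (limma adjusted p = 0.0452 with the block), and Nrarp did not (0.132). Nrarp also missed the threshold with TPM scaling (0.0554).

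The ligands Dlk1 and Dner, outside the classical set, moved in opposite directions with the block. Dlk1, a Delta-like protein without the receptor-activating domain, had 9.47, 32.03 and 25.31 FPKM untreated and 5.28, 20.32 and 19.04 FPKM treated (log2 fold change −0.63, limma adjusted p = 0.0174). Dner, a neuronal membrane protein of the same family, had 1, 0.94 and 0.6 FPKM untreated and 2.02, 1.8 and 0.9 FPKM treated (log2 fold change 0.78, limma adjusted p = 0.0462). The groups overlapped for both, and neither passed without the block (limma adjusted p = 0.999). With the block, Dner also failed to pass when replicate 1, 2 or 3 was left out (limma adjusted p = 0.0909, 0.265 and 0.0515) and with TPM scaling (0.0829). Dlk1 did not pass without replicate 2 (0.137) or with TPM scaling (0.139).

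No gene of the other roles passed in either fit. With the block and quantile normalization, Mfng of sugar transfer (log2 fold change 0.60, limma adjusted p = 0.0463) and Kat2b of the nuclear complex (0.40, 0.0477) passed, both higher. The most abundant of each role were Poglut1 for sugar transfer to the receptor (51.8 ± 18.1 and 43.4 ± 12.6 FPKM, SD, n = 3), Ncstn of the gamma-secretase that cuts it (38.6 ± 18 and 29.1 ± 10.9 FPKM), Mib2 for ligand endocytosis (11.5 ± 0.567 and 9.9 ± 2.21 FPKM) and Dtx3 for receptor turnover (23.6 ± 7.25 and 19.5 ± 6.25 FPKM). In the nucleus they were Snw1 of the activating complex (53.1 ± 12.5 and 61.7 ± 15.6 FPKM) and the corepressor Ctbp1 (39.6 ± 5.36 and 43.2 ± 7.22 FPKM), and each of these 6 genes had overlapping groups. With the block their limma adjusted p values were 0.131, 0.0666, 0.256, 0.168, 0.167 and 0.397. The median log2 fold change was −0.13 over 9 cleavage genes, −0.12 over 5 sugar transfer genes, 0.06 over 7 genes of the nuclear complex and −0.04 over 9 corepressors. The 10 genes under the filter were Dll4, Dlk2, Aph1c, Rbpjl, Hes2, Hes3, Hes5, Hes7, Hey2 and Heyl, none of them above 1.38 FPKM in any sample.

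**Figure D4:**
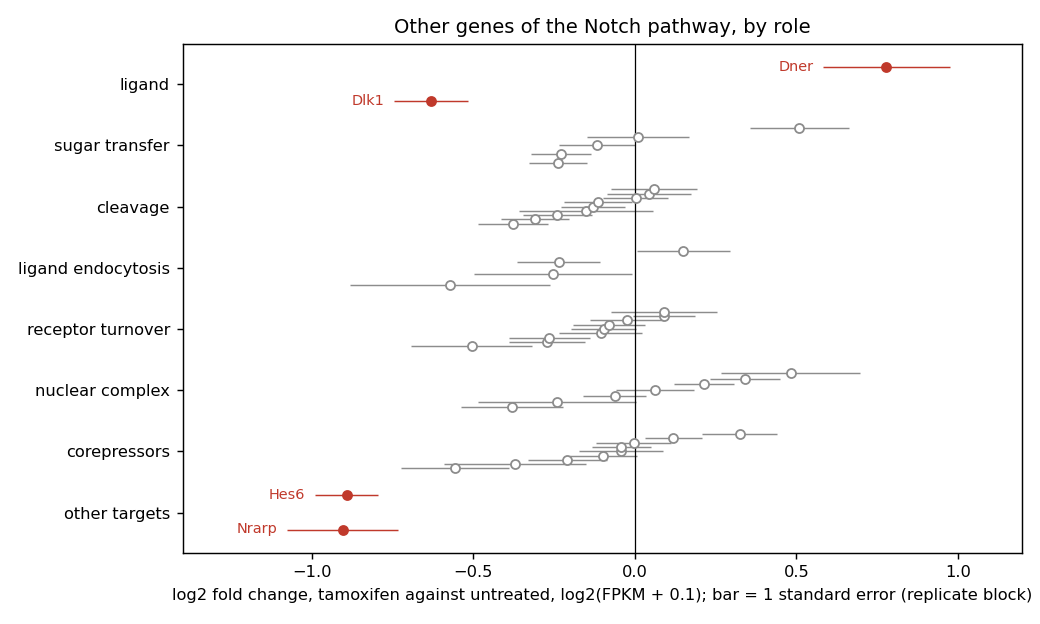
Log2 fold change of the 47 tested genes of the Notch pathway outside the 10 members, tamoxifen-treated against untreated with the replicate block (x axis), by role (y axis). Bars are 1 standard error, and red filled points passed an adjusted p of 0.05. Hes6, Nrarp and Dlk1 lie below 0 and Dner lies above it.

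Markers of neural progenitors, cells in which Notch ligands and Hes6 are known to be expressed, were in sum also lower in the treated samples. The 5 markers summed to 49.4, 42.8 and 49.5 FPKM in untreated replicates 1, 2 and 3 and to 21.5, 22.8 and 30.4 FPKM in treated replicates 1, 2 and 3, with no overlap. The ligand sum was highest in replicate 2 of both groups (73.8 and 38.2 FPKM), where the marker sum was lowest untreated and not highest treated. Dll1 alone had 1.63, 3.22 and 4.66 FPKM in treated replicates 1, 2 and 3, in the same order as the treated marker sum. Untreated it had 5.93, 13.11 and 10.16 FPKM, highest where the marker sum was lowest. Without the block 0 of the 4 tested markers passed, and with it all 4 were lower: Olig2, Pax6, Sox1 and Nes. With the block 6.06% of all genes tested were called lower. Results for these markers under the other settings, such as without replicate 2 or with TPM scaling, are not given here. Olig2 was the most abundant, at 20.21, 20.01 and 26.69 FPKM untreated and 8.15, 9.39 and 15 FPKM treated (log2 fold change −1.07, limma adjusted p = 0.00418 with the block). The proneural gene Neurog2 stayed below 0.5 FPKM in every sample. The part of these cells, or of this expression state, in the levels of the ligands was not tested.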

How the data were processed

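PolyA+ RNA of 6 samples was sequenced as directional paired-end libraries with 51 bp reads. Reads were aligned by the authors with Tophat2 (given as v0.5) to the mm9 genome. They describe RPKM from cuffdiff (v2.1.1) on refGene models, and the deposited tables hold FPKM per gene and sample. Read counts are not in them, so no interval from counting is given, and whether counting used strand is not given in the sources used here. The other 17 samples (ChIP-seq and input) were not analysed here.

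Rows of a gene name were summed, and 6 names with a failed quantification were left out. Genes with at least 0.5 FPKM in at least 3 of 6 samples were compared on log2(FPKM + 0.1), which understates changes of low genes, with limma 3.58.1 in R 4.3.3 (eBayes with trend, Benjamini-Hochberg over all genes, threshold 0.05). Samples with the same replicate number in the labels correlated in their deviations from the group means (0.544, 0.605 and 0.506), so a fit with that number as a block stands beside the main one. Methods were tested on simulated data. Tables were made with Python 3.11.15. The members and lists were chosen with earlier results of these data known. Named genes are the members, Kdm2b, listed pathway genes past the threshold or most abundant in their role, and the most abundant marker of each list, and other markers were named after their values were seen. A further neural progenitor marker on the list is not reported here. Alternatives covered the pseudocount, filter, scaling, repeated rows, trend, block and each sample.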

Additional observations from a re-analysis of the deposited data

How the results depend on the processing

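Without the block no setting called a member or another pathway gene. With the replicate block the number of members called was 4, and it was 4 with added quantile normalization, 4 with a pseudocount of 1 and 2 with TPM scaling. Leaving out 1 replicate number under the block gave 0 to 4. For the 57 other pathway genes the numbers called under the block were 4, 6 with quantile normalization (3 of them higher), 4 with a pseudocount of 1 and 1 with TPM scaling, and 1 to 5 when a replicate number was left out. The value of 0 for members came without replicate 2. Notch2 was 0.0634 with the block and without replicate 1. Over the settings that left out a sample or a replicate number, the log2 fold change of Notch2 ran from −0.47 to 0.36, that of Notch3 from −0.79 to 0.0067 and that of Notch4 from −0.0415 to 0.65, and their signs changed only there. The other 7 members kept their sign in every setting run. Of 230 alternative values for single members, 203 kept direction and side of the threshold, 22 passed it under the block and 5 changed sign. FPKM summed over all rows was 549379, 1045707 and 804941 in untreated replicates 1, 2 and 3. In treated replicates 1, 2 and 3 it was 621052, 929107 and 648889. TPM scaling sets such sums equal between samples. Why TPM scaling and replicate 2 mattered was not tested. The 3 samples per group limit precision: without the block the standard error of a member was 0.29 to 0.48 on the log2 scale.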

Other observations

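The remaining marker lists moved in part. With the replicate block, Gata6 and Gata4, transcription factors of primitive endoderm, were lower in the treated samples, at 1.13 ± 0.581 and 0.328 ± 0.0981 FPKM for Gata6 and 1.92 ± 0.579 and 0.998 ± 0.148 FPKM for Gata4 (SD, n = 3, limma adjusted p = 0.0174 and 0.0359). Dab2, the most abundant marker of that list, had 2.84 ± 0.740 and 3.42 ± 1.22 FPKM and did not pass. Eomes, a mesendoderm regulator and the most abundant of its list, had 3.04 ± 0.912 and 1.78 ± 0.247 FPKM (limma adjusted p = 0.0377 with the block). T, the other tested marker of that list, went the other way, with 0.781 ± 0.0772 and 1.13 ± 0.525 FPKM, and did not pass (limma adjusted p = 0.427 with the block). Pecam1, the most abundant of the endothelial markers and also expressed in ESCs, was higher at 26.5 ± 9.06 and 40.3 ± 12.6 FPKM (limma adjusted p = 0.0138 with the block). Kdr of the same list was lower in all 3 replicate numbers and did not pass (limma adjusted p = 0.105 with the block). None of the 7 pluripotency and 7 tested feeder markers passed. Without the block none of these genes passed. Of all genes tested, 6.06% were called lower and 4.33% higher with the block. Results for these markers under the other settings, such as without replicate 2 or with TPM scaling, are not given here.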
